A study of Caenorhabditis elegans with 10 samples.

Results

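The genes described are the 5 members of the RNase H family of the nematode Caenorhabditis elegans that the arrays carry, rnh-1.0, rnh-1.1, rnh-1.2, rnh-1.3 and rnh-2. They were matched by symbol among 17118 measured genes, and a gene with several probe sets was represented by the one that was brightest on average over the 10 arrays. The gene rnh-1.3 was chosen by its measured strain difference on these same arrays, so its own strain difference is given as a description without a test. The other 4 genes entered as relatives of rnh-1.3, whatever their values, and were tested. Each array carried total RNA of whole, untreated worms of mixed stage from a separate culture at 20 degrees, with 5 arrays of the wild type Bristol N2 and 5 of a strain with the xpa-1 allele ok698. The labels do not say whether that strain was outcrossed, so that xpa-1 and the rest of its genetic background cannot be told apart. Values are log2 probe set signals, in which a signal of 1, the lowest value in the file, has a log2 of 0. In RNA of whole worms, fewer cells of a type and less RNA per cell cannot be told apart.

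RNase H enzymes cut the RNA strand of an RNA-DNA hybrid. Such hybrids form where a transcript pairs with its template and displaces the other DNA strand, a structure called an R-loop, and where an RNA primer starts a new DNA strand. The type 1 enzyme, to which the rnh-1 genes are related, needs a run of ribonucleotides, whereas the type 2 enzyme, whose catalytic subunit rnh-2 encodes, can also cut at a single ribonucleotide within DNA. In mammals the type 1 enzyme also works in mitochondria and is needed to maintain mitochondrial DNA. The XPA protein, of which xpa-1 is the nematode counterpart, works in nucleotide excision repair, a different pathway that removes bulky lesions from DNA.

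The labels were checked on the xpa-1 transcript, which had a log2 signal of 6.38 to 6.88 on the N2 arrays and of 0 to 1.58 on the xpa-1 arrays. Of all genes, 19 passed an adjusted p of 0.05 in limma, or 0.111% of those measured, with 0.0584% higher and 0.0526% lower in the mutant. Signal medians of the arrays lay between 4.0 and 4.25 in log2. Arrays have no sequencing depth, and their number and the brightness of a probe set limit the precision.

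The transcript of rnh-1.3 (C04F12.9, chromosome I) was higher on every xpa-1 array than on any N2 array. Its log2 signal on N2 replicates 1 to 5 was 4.75, 4.32, 4.25, 4.86 and 4.58. On xpa-1 replicates 1 to 5 it was 5.39, 5.36, 5.64, 5.67 and 5.52. The strains did not overlap, and the lowest xpa-1 array lay 0.5 above the highest N2 array. Unlogged, the signal was 19 to 29 units in N2 and 41 to 51 units in xpa-1.

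The N2 arrays had a mean of 4.55 ± 0.26 for rnh-1.3 and the xpa-1 arrays one of 5.52 ± 0.14 (SD, n = 5 per strain). This is a difference of 0.96 in log2 (SE 0.132, 95% interval 0.67 to 1.26), or 1.95-fold. Among the genes past the threshold it was the 18th of 19 when ordered by p, and these values are the ones that chose it. The interval and the rank take no account of that choice and are no test. Over all genes the arrays of the strains did not overlap in 0.374%, and since rnh-1.3 was picked for its separation, nothing is read from that share. Membership in the group past the threshold was easily lost, and not through 1 array in particular. It was kept in 1 of 10 fits that left out 1 array, the one without N2 replicate 4, while the difference itself stayed between 0.89 and 1.04. With 16 units added to every signal before taking logs, the difference was 0.64, a scale on which low signals differ less by construction.

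The other type 1 gene with a clear signal, rnh-1.0 (F59A6.6, chromosome II), did not pass the test. Its log2 signal was 6.34, 6.49, 6.44, 6.48 and 6.02 on N2 replicates 1 to 5. On the xpa-1 arrays it was 6.41, 6.23, 6.30, 6.13 and 6.15. The strains overlapped, the lowest array of all being N2 replicate 5. From means of 6.35 ± 0.20 for N2 and 6.24 ± 0.11 for xpa-1 (SD, n = 5 per strain), the difference was -0.11 (SE 0.104, limma adjusted p = 1, unadjusted p = 0.315). The 95% interval of -0.34 to 0.12 corresponds to an xpa-1 level of 0.788 to 1.09 times that of N2, so a difference as large as the one measured for rnh-1.3 lay outside it.

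For rnh-2 (T13H5.7, chromosome II), the catalytic subunit of the type 2 enzyme, the strain means were equal to 2 decimals. The probe set that stands for the gene gave 6.27, 6.46, 6.11, 6.30 and 5.70 in log2 on N2 replicates 1 to 5. On the xpa-1 arrays it gave 6.04, 6.34, 6.25, 5.98 and 6.25, all within the N2 range. The means were 6.17 ± 0.29 in N2 and 6.17 ± 0.15 in xpa-1 (SD, n = 5 each), and the difference was 0.004 (SE 0.143, 95% interval -0.32 to 0.33, limma adjusted p = 1). In ratio that interval runs from 0.802 to 1.25.

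The second probe set of rnh-2 had a slightly lower mean over all arrays and so did not stand for the gene. By the ending of its name, its probes may bind more than 1 related transcript. Its signal was 6.36, 6.13, 6.15, 6.13 and 5.73 in log2 on the N2 arrays and 6.21, 6.29, 5.67, 6.27 and 6.58 on the xpa-1 arrays. The strains overlapped here too (means 6.10 ± 0.23 and 6.20 ± 0.33, SD, n = 5 each), with a difference of 0.1 (SE 0.173, limma adjusted p = 1 over probe sets). Both probe sets were lowest among the N2 arrays on replicate 5, but they differed on xpa-1 replicate 3, where the first read 6.25 and the second 5.67.

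The remaining genes were dim. The log2 signal of rnh-1.1 (ZK1290.6, chromosome II) was 2.58, 1.58, 3.70, 3.46 and 3.32 on the N2 arrays and 4.00, 1.58, 2.58, 2.32 and 2.32 on the xpa-1 arrays. These are unlogged signals of 3 to 13 and of 3 to 16 units, and the strains overlapped over nearly their whole range. The difference of -0.37 (SE 0.518, limma adjusted p = 1, unadjusted p = 0.496) has a 95% interval of -1.54 to 0.8. An xpa-1 level of 0.344 to 1.74 times that of N2 is compatible with these arrays. A rise as large as the one measured for rnh-1.3 lay outside this interval. A fall of the same size lay within it and would not have been detectable for rnh-1.1. The interval rests on signals of few units.

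The signal of rnh-1.2 (ZK938.7, chromosome II) stayed on the lowest steps of the scale. Unlogged it read 2, 2, 1, 2 and 2 units on the N2 arrays and 3, 1, 2, 2 and 1 on the xpa-1 arrays. It was thus listed at 0 in log2 on 1 N2 array and 2 xpa-1 arrays, and no array exceeded 3 units. The means were 0.80 ± 0.45 in N2 and 0.72 ± 0.70 in xpa-1 (SD, n = 5 each), with a difference of -0.08 (SE 0.348, 95% interval -0.87 to 0.7, limma adjusted p = 1). Such values are steps of whole units and carry little information on the transcript.

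Over the 4 genes tested, 0 passed the threshold in limma and 0 had an unadjusted p under 0.05, against 0.111% and 3.33% of all genes. Their median difference was -0.1, where that of all genes was 0.02. The differences of rnh-1.2 and rnh-2 were small enough for their sign to turn between processing settings, whereas rnh-1.0 and rnh-1.1 were lower in xpa-1 under every setting tried that kept them, again without passing.

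**Figure D1:**
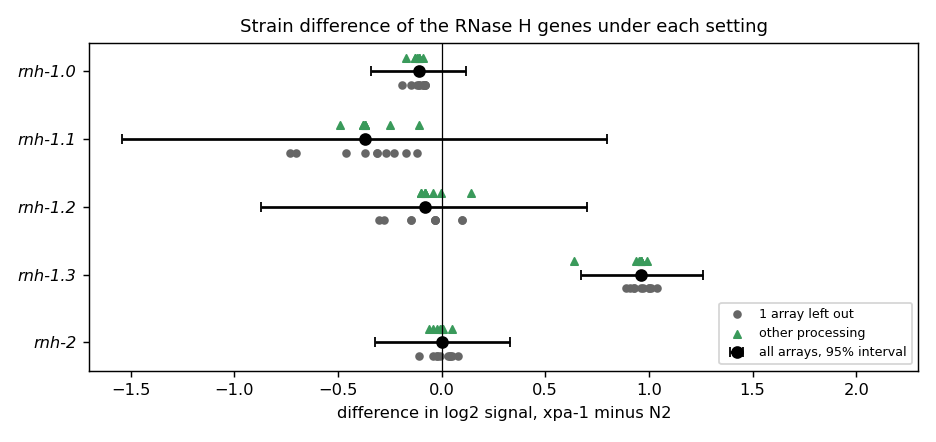
Difference in log2 signal, xpa-1 minus N2 (horizontal axis), of the 5 genes with all arrays (black, with the 95% interval of the limma fit), with 1 array left out (grey) and under other processing (green triangles). For rnh-1.3 all settings lie between 0.64 and 1.04, and for the other 4 genes the interval includes 0.

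None of the genes next to rnh-1.3 passed the threshold. In the gene order of the RefSeq assembly WBcel235, the 3 measured genes on one side were C04F12.8 with a difference of -0.14 (SE 0.12), C04F12.7 with -0.11 (SE 0.558) and C04F12.6, a pseudogene, with 0.11 (SE 0.241). On the other side were fce-1, which encodes a protease that processes prenylated proteins, with 0.02 (SE 0.0758), C16C2.4 with 0 (SE 0.174) and ocrl-1, a homologue of the human inositol phosphatase OCRL, with -0.07 (SE 0.103). All 6 had an adjusted p of 1 in limma. Over the 10 measured genes on each side, 0 of 20 passed the threshold and 0 had an unadjusted p under 0.05, against 0.111% and 3.33% of all genes. Their differences ran from -0.14 to 0.32 with a median of 0.05. The estimates at 0.32 belong to ceh-5 and K02A11.2, which were close to the floor and had SE of 0.404 and 0.362.

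Chromosome I holds 14.4% of the measured genes and 8 of the 19 past the threshold, which are rnh-1.3, xpa-1 and 6 more. These 8 are not separate places, and rnh-1.3 was chosen for its difference, so nothing is read from that count. The gene mks-6 lies next to xpa-1. On the other side of rnh-1.3, tmem-189, fbxa-124, fbxa-122 and F58D5.2 lie close together, with 373 to 386 measured genes between them and rnh-1.3. Between xpa-1 and rnh-1.3 lie 482 measured genes, of 2469 on the chromosome. The nearest of the genes that passed is tmem-189, with 373 measured genes in between. Around the other family members, the 10 measured genes on each side held 0 genes past the threshold. Of these 20 genes, those with an unadjusted p under 0.05 in limma numbered 0 around rnh-1.0 and rnh-2, 1 around rnh-1.1 and 3 around rnh-1.2. Around rnh-1.2, 15 of the 20 differences were below 0, with a median of -0.34. Over all genes 41.4% of differences were below 0, and 3.33% had an unadjusted p under 0.05 in limma. Many of the genes around rnh-1.2 were dim and belong to the related cyp-13A and chil genes, so they cannot be counted as independent.

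**Figure D2:**
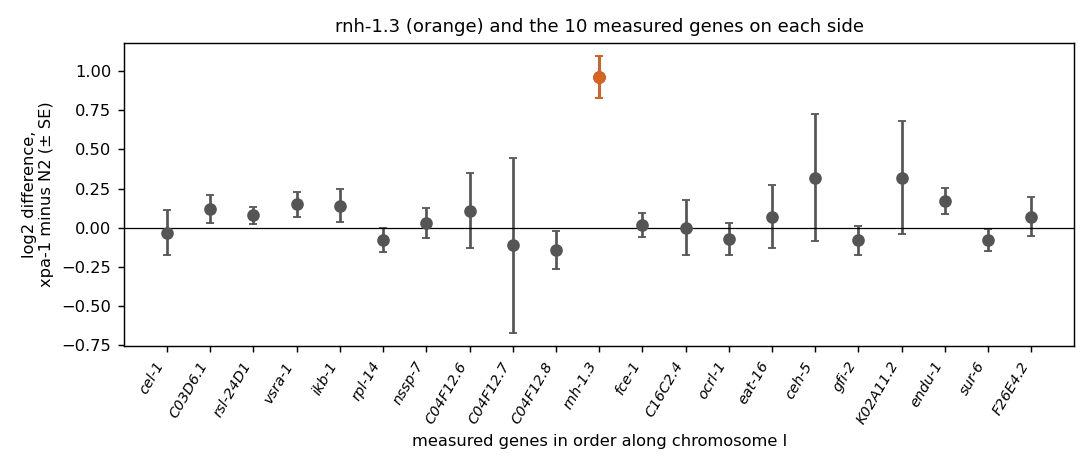
Difference in log2 signal, xpa-1 minus N2 (vertical axis, ± SE of the limma fit, n = 5 arrays per strain), of rnh-1.3 in orange and of the 10 measured genes on each side of it in grey, in their order along chromosome I. The orange point lies at 0.96 and the grey points between -0.14 and 0.32.

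Genes of processes related to RNase H function were compared in 3 lists, not all of whose members act on RNA-DNA hybrids. Of their 53 measured members, 0 passed the threshold or had an unadjusted p under 0.05 in limma. Over all genes these shares were 0.111% and 3.33%, so that few or none were to be found among so few genes in any case. Of 23 factors that prevent or resolve R-loops, among them the THO complex, mRNA export proteins, helicases and nucleases, 19 had a difference above 0 and 4 below, with a median of 0.05 and a range of -0.06 to 0.2. The brightest were hel-1, a helicase of mRNA export (N2 9.80 ± 0.26, xpa-1 9.85 ± 0.03), and the export adaptor gene aly-2 (N2 9.63 ± 0.21, xpa-1 9.79 ± 0.20), as mean log2 signal with SD and n = 5 per strain. Of genes picked here for their role, the topoisomerase gene top-1 stood at 7.85 ± 0.25 and 7.99 ± 0.10. The repair nuclease genes xpf-1 and xpg-1, which cut DNA beside a lesion in the pathway of xpa-1 and also process R-loops in human cells, differed by 0.19 (SE 0.175) and -0.03 (SE 0.15).

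Lagging strand synthesis, in which RNA primers are laid down and removed again, was represented by a list of 22 genes. This list also held genes of nucleotide supply, and its median difference was 0.07 (range -0.03 to 0.2). The brightest were rnr-2, which encodes a subunit of ribonucleotide reductase (N2 9.95 ± 0.24, xpa-1 10.03 ± 0.12), and the dUTPase gene dut-1 (N2 9.52 ± 0.32, xpa-1 9.72 ± 0.19). The flap endonuclease gene crn-1, whose product acts in primer removal and which was picked here for that role, had the same mean in both strains, 7.58 ± 0.25 and 7.58 ± 0.14. The 8 measured genes of mitochondrial DNA maintenance had a median of 0.02 (range -0.06 to 0.17). Among these, the mitochondrial single-strand binding protein gene mtss-1 stood at 8.65 ± 0.11 and 8.70 ± 0.08, atad-3, which encodes an ATPase of the mitochondrial membrane, at 7.0 ± 0.18 and 6.95 ± 0.09, and the mitochondrial DNA polymerase gene polg-1 differed by 0.17 (SE 0.129).

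In the lists of R-loop factors and of lagging strand synthesis, 19 of 23 and 19 of 22 members lay above 0, and so did 19 of 21 genes of the oocyte and maternal list, whose mean was 9.31 ± 0.27 in N2 and 9.36 ± 0.14 in xpa-1 (SD, n = 5 each). Over all genes, 54.7% of differences were above 0 and 41.4% below. Other lists lay below 0, with 14 of 14 muscle genes (median -0.12) and 11 of 14 molting genes (median -0.04). Without N2 replicate 5, the median of the R-loop factors was -0.03 and that of lagging strand synthesis -0.0055. Without any other single array both medians stayed above 0. With all arrays and the oocyte list mean as a covariate, they were 0.0081 and 0.03, and the reason for the tilt was not tested. The difference of rnh-1.3 was 0.96 with the same covariate, but the gene was no longer among those past the threshold in that fit.

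**Figure D3:**
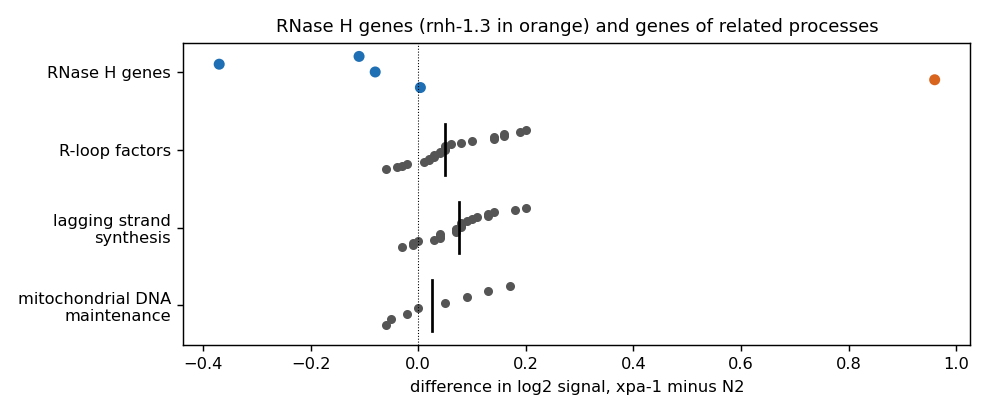
Difference in log2 signal, xpa-1 minus N2 (horizontal axis), of each RNase H gene (top row, rnh-1.3 in orange and the others in blue) and of each measured gene of 3 related processes (grey, with the median as a black line). The grey points lie between -0.06 and 0.2, and rnh-1.3 lies at 0.96.

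Because the worms were of mixed stage, the family was also set against 8 lists of stage and tissue genes across the 10 arrays, each value centred on the mean of its strain so that the strain difference did not enter. None of the 40 relations passed after Benjamini-Hochberg adjustment, and 5 had an unadjusted permutation p under 0.05 for Pearson's r. The closest were those of rnh-2 with the oocyte and maternal list and of rnh-1.1 with the sperm list. For rnh-2 and the oocyte list, r was 0.84 (permutation p = 0.0153, adjusted p = 0.307) and rho 0.78 (permutation p = 0.0154, adjusted p = 0.265), two-sided, over 10 arrays. Without N2 replicates 1 and 5, the arrays farthest from the median of the list, r was 0.78, and within strains it was 0.86 in N2 and 0.75 in xpa-1. The second probe set of rnh-2, examined after these values were seen, gave r = 0.71 (permutation p = 0.014, not adjusted) and r = 0.53 without the same arrays. With each array centred on its median, 8 of the 40 relations had an unadjusted permutation p under 0.05 and 0 passed after adjustment. The highest r was then 0.9, for rnh-2 and the oocyte list (permutation test, adjusted p = 0.126).

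For rnh-1.1 and the sperm list, r was 0.83 (permutation p = 0.0083, adjusted p = 0.307) and rho 0.71 (permutation p = 0.0458, adjusted p = 0.265), with r = 0.75 when N2 replicates 2 and 4 were left out. Both sides of this relation were dim, since only 7 of the 15 measured sperm genes had a mean log2 signal of at least 4. Whether low signals shared variation for other reasons than stage was not tested. The sperm list mean itself ran from 3.19 to 5.06 in N2 and from 3.94 to 5.03 in xpa-1. On the arrays with the lowest and highest list mean of each strain, rnh-1.1 read 1.58 and 3.46 in N2 and 2.58 and 4.00 in xpa-1, while it also read 1.58 on xpa-1 replicate 2, which had the second highest list mean of its strain. The signal of rnh-2 also went with the meiotic germline list (r = 0.76, permutation p = 0.0287) and the early zygotic list (r = 0.71, permutation p = 0.0491), and against the muscle list (r = -0.61, permutation p = 0.0399), with adjusted p values of 0.383, 0.393 and 0.393 and with rho of 0.68, 0.68 and -0.63. Without the 2 arrays farthest from each list's median these r values were 0.56, 0.81 and -0.59. The early zygotic list was dim as well, with 3 of its 10 measured genes at a mean log2 signal of at least 4. By rank, the molting list also went with rnh-1.1 (rho 0.74, permutation p = 0.0309) and against rnh-2 (rho -0.71, permutation p = 0.0394), with an adjusted p of 0.265 for each. The r values of the molting list with these genes were 0.54 (permutation p = 0.151) and -0.59 (permutation p = 0.125).

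For rnh-1.3 the r values with the 8 lists lay between -0.16 and 0.22, with the lowest permutation p at 0.499 (adjusted p = 0.831). When N2 replicates 2 and 4 were left out, r with the sperm list went from 0.03 to -0.86.

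**Figure D4:**
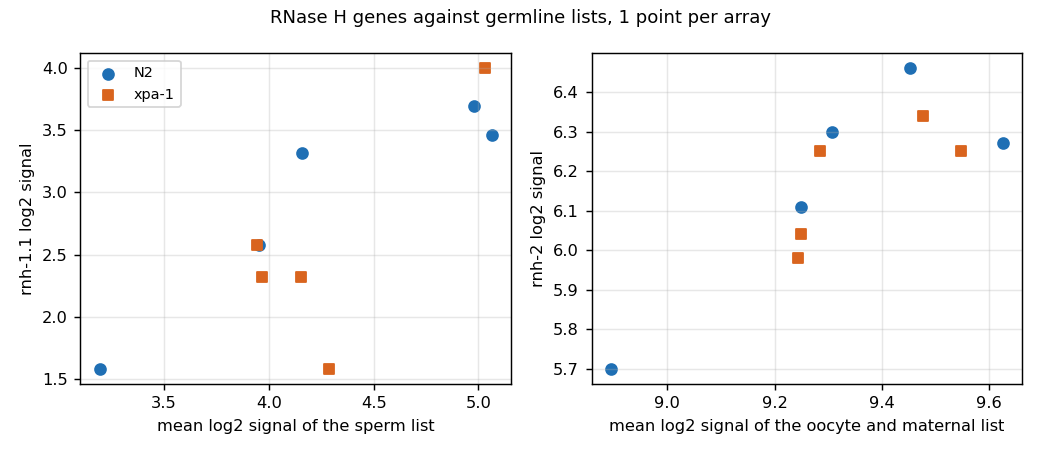
Log2 signal of rnh-1.1 against the mean log2 signal of the sperm list (left) and of rnh-2 against that of the oocyte and maternal list (right), with N2 arrays as blue circles and xpa-1 arrays as orange squares. Both plots rise from left to right, and neither relation passed after adjustment over the 40 relations examined (adjusted p = 0.307 for each r, permutation test).

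No pair of members passed a test for shared variation across the arrays. Of 10 pairs of RNase H genes, 0 passed after adjustment and 0 had an unadjusted permutation p under 0.05 for r. The highest r was 0.67 between rnh-1.0 and rnh-2 (permutation p = 0.0986, adjusted p = 0.596, rho 0.44). It was -0.17 without N2 replicate 5 and xpa-1 replicate 4, the arrays farthest from the median of rnh-2. Within strains it was 0.91 in N2 and -0.08 in xpa-1. The lowest r was -0.56 between rnh-1.1 and rnh-2 (permutation p = 0.119, adjusted p = 0.596, rho -0.61), which was -0.91 without the same arrays. With each array centred on its median, r ran up to 0.84, and 1 pair had an unadjusted permutation p under 0.05 and 0 passed after adjustment. The r values of rnh-1.3 with its 4 relatives ran from -0.22 to 0.38, the latter with the dim rnh-1.2.

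The genes most like each member in their variation within strains were taken from 6877 genes with a mean log2 signal of at least 5, by Pearson's r over the 10 centred arrays. They are the highest of many coefficients and are given as a description with no test. For rnh-1.3 they were C05D11.1 (r = 0.93), the protein kinase gene mak-1 (r = 0.87) and F08G12.1 (r = 0.85), whose strain differences were 0.05, 0 and 0.08. For rnh-2 they were K08D12.3 (r = 0.97), C49F5.3 (r = 0.97) and the Mediator subunit gene rgr-1 (r = 0.96). For rnh-1.0 they were ath-1 (r = 0.94), the mitochondrially encoded cytochrome oxidase gene COX2 (r = 0.94) and the RNA helicase gene vbh-1 (r = 0.93). For rnh-1.1 they were F19C7.2 (r = 0.97), the lipase-related lips-15 (r = 0.95) and ndus-8 of respiratory complex I (r = 0.94). For the dim rnh-1.2 they were mtch-1 (r = 0.95), the proton pump subunit gene vha-4 (r = 0.92) and the heme transporter gene hrg-4 (r = 0.90). No gene stood in the list of more than 1 member.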

How the data were processed

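The authors deposited a log2 signal per probe set and array, made per the submitters' processing notes with Affymetrix Expression Console. Not given in the sources used here is how probes were summarised and arrays scaled. All 134454 values below a log2 signal of 5 were within 0.005 of the log2 of a whole number, so signals had been rounded to whole units. The 77 control probe sets were left out. Of 22548 others, 20766 had 1 gene symbol in the platform annotation, and 17075 of 17118 genes were found in the RefSeq table of WBcel235, which gave only names, chromosomes and gene order.

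The deposited values were tested as they stand with limma 3.58.1 in R 4.3.3 (group as the only term, two-sided, Benjamini-Hochberg over genes, threshold 0.05). Differences are xpa-1 minus N2 in log2. Relations used 100000 permutations within strains. In simulated data with 22548 probe sets for xpa-1 against N2, limma recovered 36% of genes changed by 1.5-fold, 76% by 2-fold and 98% by 4-fold, among genes with a mean log2 signal over 4. It also made 9 false calls. The real comparison called fewer genes than the simulation held, so these rates may be too high for it.

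The members and gene lists were chosen with earlier results of these data known. Named by rule were the members, xpa-1, the 3 neighbours of rnh-1.3 on each side, the 3 genes most like each member, and the 2 brightest and any called genes of each related list. The alternatives were scaling, an offset of 16, limma options, a filter on dim probe sets, averaged probe sets, stage covariates, a replicate block and leaving out each array.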

Additional observations from a re-analysis of the deposited data

Results flagged for a closer look

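Of 34 groups of 5 arrays examined for 1 array far from the others (the 6 probe sets of the family and the mean of each gene list, in each strain), 1 was found, where chance gives about 1 in 20. The log2 signal of rnh-1.2 was 0 on N2 replicate 3 against 1 on the other four N2 arrays, which is a step of 1 unit at the bottom of the scale.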

How the results depend on the processing

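The difference of rnh-1.3 stayed above 0 under all 20 alternatives and moved beyond the spread between arrays with the offset of 16 (0.64). It ran from 0.89 to 1.04 when 1 array was left out. Of the 10 alternatives that kept all arrays, rnh-1.3 was among the genes past the threshold in 4. The 4 tested genes did not pass in any alternative. Leaving out 1 array gave -0.19 to -0.08 for rnh-1.0, -0.73 to -0.12 for rnh-1.1, -0.3 to 0.1 for rnh-1.2 and -0.11 to 0.08 for rnh-2. The sign of rnh-1.2 also turned with array weights (0.14). That of rnh-2 turned with array weights (-0.06), median centring (-0.01), the oocyte covariate (-0.04) and quantile normalization (-0.02). The causes were not tested. Each value of turned sign was smaller in size than the SE of its gene with all arrays (0.348 for rnh-1.2 and 0.143 for rnh-2). The count of genes past the threshold was 19, 13 to 21 without 1 array, 12 with only probe sets of a mean log2 signal of at least 4, where rnh-1.1 and rnh-1.2 were not kept, and 5 with the replicate block. The labels give only numbers, and arrays with the same number did not deviate together (r across genes from -0.27 to -0.03), so the block is not used as a paired analysis. The block leaves the mean differences as they are by construction (0.96 for rnh-1.3), and rnh-1.3 was not among the genes past the threshold with it. Low signals limit rnh-1.1 and rnh-1.2 most.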
